A study of Sus scrofa with 3 samples.

Results

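This account covers the liver transcripts of 4 groups of membrane transport genes in pigs: ATP-binding cassette (ABC) genes, organic anion transporting polypeptides (OATPs, the SLCO genes), lipid flippases of the P4 class of ATPases, and aquaporins. Members were all gene IDs of the deposited tables whose pig symbol carries one of these family names, without the sulfonylurea receptor gene ABCC8. That rule found 59 of 25322 gene IDs: 34 ABC, 8 OATP, 11 flippase and 6 aquaporin genes. RNA came from the livers of 3 male pigs at postnatal day 90, with 1 library each for an Enshi black pig (a Chinese local breed), a Large White pig (a European commercial breed) and a Chinese wild boar. All 3 groups share tissue, sex and age, and the labels name no treatment. Breed, animal and library cannot be told apart, so no difference below has a replicate check.

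Hepatocytes take up bile acids, hormones and drugs from blood through the sodium-dependent carrier SLC10A1 and through OATPs. They then export bile salts, conjugates, phospholipid and sterols across the canalicular membrane with ABC pumps, and return some conjugates to blood with basolateral ABCC pumps. Flippases move phospholipids from the outer to the inner membrane leaflet and so keep membranes asymmetric, which in the canaliculus protects the cell from bile salts. Aquaporins carry water, and the aquaglyceroporins among them also carry glycerol, which the liver uses to make glucose and triglyceride. Other ABC proteins sit in mitochondria, peroxisomes and lysosomes, and the ABCE and ABCF proteins have no membrane domain and act on ribosomes.

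The libraries held 19982627 to 20654571 counts over genes, of which the 59 members took 0.233% in the Enshi black, 0.257% in the Large White and 0.262% in the Chinese wild boar library. Levels are given as CPM, the count scaled to a common library total with TMM factors. Where 3 values follow a gene without library names, they stand in the order Enshi black, Large White, Chinese wild boar. A gene counted as expressed if any library reached 1 CPM for it, which held for 13224 gene IDs and 45 members. A fold is a ratio of scaled counts, followed in parentheses by its 95% exact binomial interval, which covers counting error only. A gene was called higher or lower when its whole interval lay at or beyond a 2-fold difference. The labelled tissue was checked against 8 hepatocyte markers: 7 had a gene ID and 6 were expressed, led by ALB with 25234 to 66555 CPM. The exception was the gene ID named APOA1, with 0 to 2 counts. Whether reads of APOA1 were assigned to another gene ID was not tested, so these counts do not show the transcript as absent. Across libraries the hepatocyte markers summed to 94764 CPM in the Enshi black, 52759 in the Large White and 78120 in the Chinese wild boar library, a sum set mostly by ALB. Without ALB, they summed to 28208, 27526 and 24348 CPM in the same order. Of the 6 expressed, 3 had a log2 fold above 0 in Enshi black against Large White, and only ALB was called there. In bulk liver, fewer cells of a type and less RNA per cell cannot be told apart.

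The clearest differences among the members were between the Enshi black library and the other 2. The glycerol channel gene AQP9 was lower in Enshi black than in either other library, as were the exporter genes ABCC10 and ABCG2A, whereas ABCC9 and ABCA5 were higher than in either. The Chinese wild boar library stood apart in 1 member, the peroxisomal transporter ABCD3, which was higher there. Large White stood apart in ABCB9, a lysosomal peptide transporter, which was higher there and reached 1 CPM in that library only. The canalicular exporter genes ABCB11, ABCC2 and ABCG8 and the uptake genes SLCO2B1 and SLCO1A2 were within 2-fold in every comparison.

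Of the 45 expressed members, 4 were called higher and 5 lower in Enshi black than in the Large White library. That is 8.89% higher and 11.1% lower, against 4.73% and 8.36% of all 13224 expressed genes. In Chinese wild boar against Large White, 1 member was called higher and 2 lower, where 2.99% and 3.71% of all expressed genes were called. Enshi black against Chinese wild boar gave 3 higher and 4 lower members, where the shares over all expressed genes were 3.98% and 7.17%. The median log2 fold of the members was -0.08, -0.09 and -0.06 in these comparisons, and that of all expressed genes was 0.01, 0.01 and 0.00. In all, 33 of the 45 expressed members (73.3%) were called in none of the 3 comparisons, against 80.2% of all expressed genes. The 3 comparisons share libraries and are not independent of each other. A library stood apart for a gene when the gene was called in the same direction against both others. Enshi black stood apart as higher in 2 members and lower in 3, against 1.7% and 4.61% of all expressed genes. Large White did so in 1 and 0 members, against 1.68% and 1.08%, and Chinese wild boar in 1 and 0, against 1.2% and 0.877%.

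**Figure D1:**
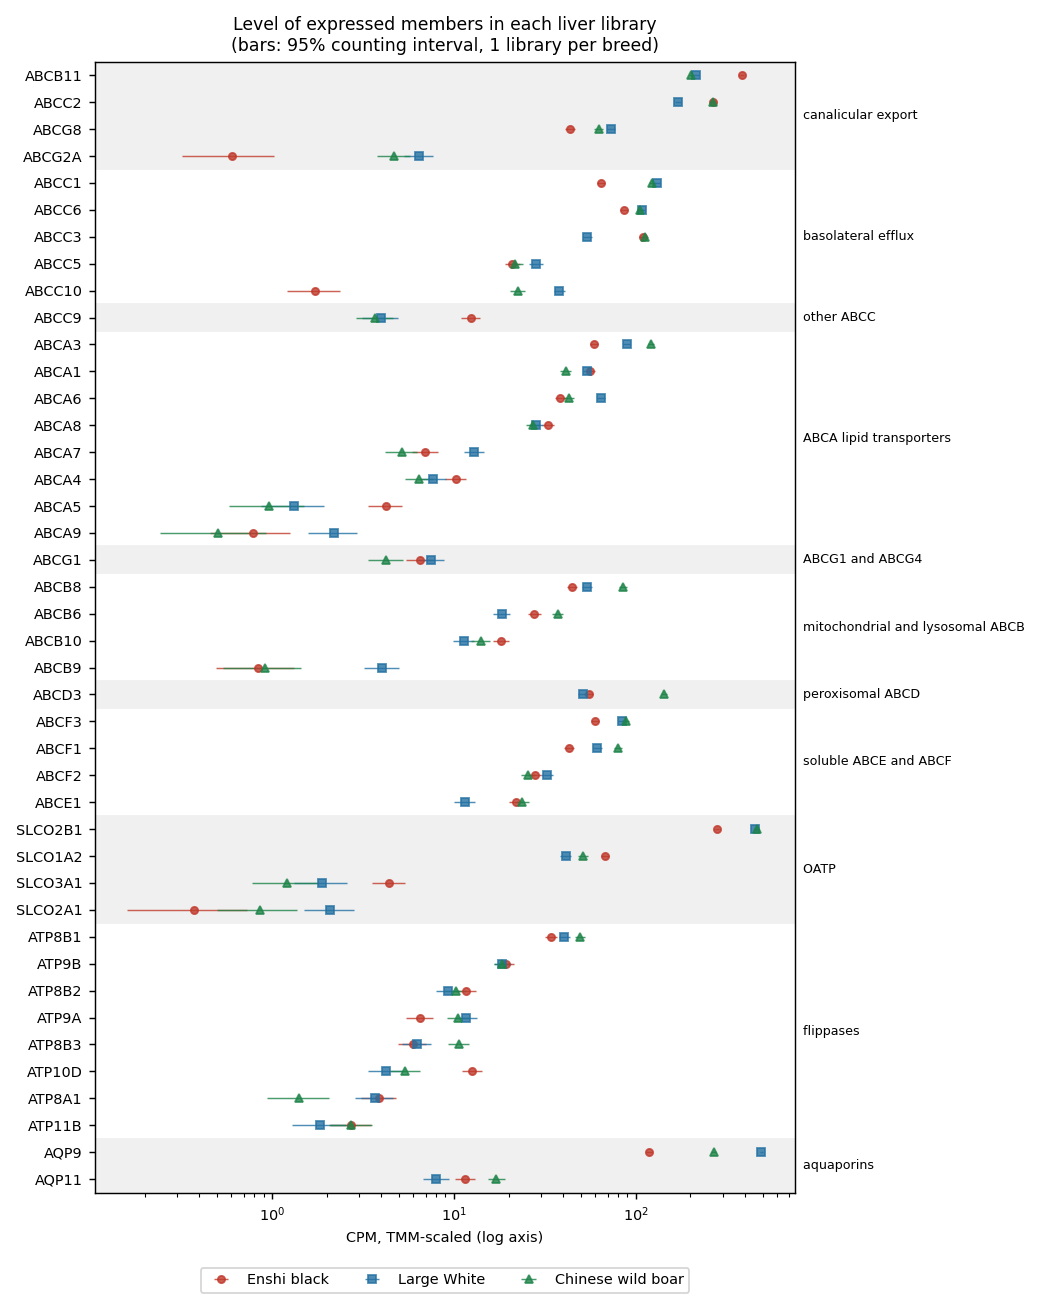
Level of 42 of the 45 expressed members (rows, grouped by role) in CPM on a log axis. Each symbol is 1 library, with its 95% counting interval. ABCC10, ABCG2A and AQP9 lie lowest in Enshi black, ABCC9 and ABCA5 highest there, and ABCD3 highest in Chinese wild boar.

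Among the 14 members that were not expressed, 6 had no count in any library: ABCC12, ABCD2, AQP2, AQP10, SLCO1C1 and SLCO6A1. A count of 0 allows up to 3 counts of the total, which is 0.139 CPM in the Enshi black, 0.153 in the Large White and 0.152 in the Chinese wild boar library. The other 8 were ABCB5, ABCG4, AQP5, AQP6, ATP8B4, ATP10B, SLCO4C1 and SLCO5A1, each under 1 CPM in every library. The highest of these was ATP8B4, with 1 count in the Enshi black, 15 in the Large White and 7 in the Chinese wild boar library. Of the expressed members, 6 had a mean of at least 100 CPM, 24 a mean of 10 to under 100 CPM and 15 a lower mean. Levels are compared here between libraries and not between genes, because no transcript lengths of the annotation were used.

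The ratio of the highest to the lowest library had a median of 1.87 over the expressed members and 1.68 over all expressed genes. With means of at least 10 CPM only, the medians were 1.69 for 30 members and 1.55 for 7352 genes. Enshi black was the highest of the 3 libraries in 17 members and the lowest in 19. Over all expressed genes it was the highest in 37.2% and the lowest in 36.4%.

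Uptake from blood was represented by 8 OATP genes, of which 4 were expressed. SLCO1B1 and SLCO1B3 had no matched gene ID and were not analysed here. SLCO2B1, which carries steroid sulphates and many drugs, had 280 CPM in the Enshi black, 454 in the Large White and 465 in the Chinese wild boar library. The latter 2 libraries were close, with a fold of 1.02 (0.994 to 1.05), and Enshi black was 1.62-fold lower than Large White (1.57 to 1.68), which was not called. SLCO1A2, which carries bile acids and organic anions, ran the other way, with 67.6, 41.3 and 51.5 CPM in the same order. Its fold for Enshi black over Large White was 1.64 (1.5 to 1.79), and it was not called.

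The remaining expressed OATP genes had few counts. SLCO3A1, which carries prostaglandins and thyroid hormone, had 95 counts in the Enshi black, 37 in the Large White and 24 in the Chinese wild boar library. It was called in Enshi black against Chinese wild boar only, at 3.62-fold higher (2.30 to 5.93), and its fold over Large White was 2.33 (1.58 to 3.51). The prostaglandin transporter SLCO2A1 (ENSSSCG00000011641) had 8, 41 and 17 counts. This was 5.64-fold lower in Enshi black than in the Large White library (2.61 to 13.9), and its other folds were not called. Only Large White reached 1 CPM for SLCO2A1, so it passed the expression filter through its high library alone. SLCO2A1 is also known from endothelial cells. Of 5 expressed endothelial markers, 1 was called lower in Enshi black than in the Large White library (STAB1, 186 against 498 CPM) and none higher. The other 4 had folds above 1 in that comparison, from 1.04 for ENG to 1.47 for KDR, and KDR was called higher in Enshi black against Chinese wild boar, at 2.73-fold (2.56 to 2.92). The endothelial list summed to 801, 1025 and 720 CPM in Enshi black, Large White and Chinese wild boar, and without STAB1 to 615, 527 and 552 CPM. STAB1 was left out because it was called, and the other 4 had folds above 1. The order of Enshi black and Large White in the second sum therefore follows from that choice. No matched marker was at 0 in all libraries, and the part of these cells in the SLCO2A1 difference was not tested.

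Canalicular export was covered by 4 gene IDs, all expressed, and 1 of them was called. ABCB11, the bile salt export pump, had 383 CPM in the Enshi black, 216 in the Large White and 202 in the Chinese wild boar library. The Enshi black value was the highest, by 1.78-fold over Large White (1.71 to 1.84) and 1.90-fold over Chinese wild boar (1.83 to 1.97), and neither was called. ABCC2, the pump for conjugated bilirubin and glutathione conjugates, had 267, 171 and 265 CPM in the same order. Here Large White was the low library, with a fold of 1.56 in Enshi black (1.5 to 1.63) and 1.55 in Chinese wild boar (1.48 to 1.62). The phospholipid exporter ABCB4, the drug pump ABCB1 and ABCG5 had no matched gene ID and were not analysed here. ABCG8, one partner of the sterol exporter ABCG5/ABCG8, was lowest in the Enshi black, with 43.5 CPM against 73.1 in the Large White and 62.7 in the Chinese wild boar library.

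The gene listed as ABCG2A (ENSSSCG00000009215) was placed with these exporters by its name, since ABCG2 exports drugs and urate. It had 13 counts in the Enshi black, 126 in the Large White and 93 in the Chinese wild boar library, or 0.603, 6.43 and 4.71 CPM. The Enshi black library was 10.7-fold lower than Large White (6.02 to 20.6) and 7.82-fold lower than Chinese wild boar (4.35 to 15.2). Between the latter 2 libraries the fold was 1.36 lower in Chinese wild boar (1.04 to 1.80), which was not called.

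Among 6 MRP-type exporters of basolateral membranes and other membranes, 5 were expressed and 1 was called. ABCC4 had no matched gene ID and was not analysed here. ABCC10, an exporter of lipophilic anions and drugs (ENSSSCG00000001680), had 37 counts in the Enshi black, 746 in the Large White and 445 in the Chinese wild boar library. That was 1.72, 38.1 and 22.5 CPM, the widest difference among the expressed members. Enshi black was 22.2-fold lower than Large White (15.9 to 31.8) and 13.1-fold lower than Chinese wild boar (9.39 to 18.9). ABCC10 and ABCG2A were the 2 members at least 4-fold lower in Enshi black than in both other libraries by the interval bound. The same held for 282 of the 13224 expressed genes (2.13%) in the Enshi black, against 31 in the Large White and 21 in the Chinese wild boar library, so such low genes were more frequent in the Enshi black library as a whole.

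ABCC3 and ABCC1 lay close to the size threshold without passing it. ABCC3, which returns glucuronides to blood, had 109 CPM in the Enshi black, 54.3 in the Large White and 112 in the Chinese wild boar library. Its fold over Large White was 2.01 (1.87 to 2.16) in Enshi black and 2.06 (1.91 to 2.22) in Chinese wild boar. ABCC1, which exports glutathione conjugates and leukotrienes, was low in Enshi black, with 64.4 CPM against 131 and 123. It was 2.03-fold lower in Enshi black than in the Large White library (1.90 to 2.17). ABCC6 and ABCC5 varied less and were not called. ABCC6, known for its part in mineralisation disorders, had 86.2, 108 and 106 CPM, and ABCC5, a cyclic nucleotide exporter, had 21.0, 28.4 and 21.8. ABCC1 and ABCC6 are direct neighbours in RefSeq's Sscrofa11.1 annotation and related in sequence, so reads shared between them are a source of uncertainty.

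Partners of bile and drug transport were described from a list of 19 symbols, with NHERF1 also listed under its other name SLC9A3R1. By symbol, 18 had a gene ID and 17 were expressed. Of these, 1 was called higher in Enshi black than in the Large White library, 1 higher in Chinese wild boar than in Large White and 1 higher in Enshi black than in Chinese wild boar, with none lower in any comparison. SLC51A, a subunit of the basolateral bile acid exporter, had 26, 3 and 4 counts. Its Enshi black level was 7.88-fold that of Large White (2.41 to 40.7) and 5.95-fold that of Chinese wild boar (2.06 to 23.5). Only Enshi black reached 1 CPM for SLC51A. The other subunit gene, SLC51B, had more counts (165, 59 and 120) and was not called. Its Enshi black level was 2.54-fold that of Large White (1.88 to 3.48) and 1.26-fold that of Chinese wild boar (0.989 to 1.61). For SLC51B, Chinese wild boar was 2.02-fold above Large White (1.47 to 2.81). NR0B2, a repressor of bile acid synthesis that the bile acid receptor NR1H4 induces, had 45.1, 20.7 and 82.3 CPM and was 3.97-fold higher in Chinese wild boar than in Large White (3.56 to 4.44). NR1H4 itself had 51.4, 53.1 and 65.9 CPM and was not called. SLC10A1, the sodium-dependent uptake carrier, had 179, 286 and 323 CPM, lowest in Enshi black as SLCO2B1 was. The drug-sensing receptors NR1I2 (137, 179 and 190 CPM) and NR1I3 (44.8, 81.9 and 69.5 CPM) were also lowest in Enshi black, and neither was called. HNF4A (746, 586 and 724 CPM) and PPARA (34.0, 22.0 and 26.9 CPM) were highest in Enshi black and not called either. Of the 17 expressed partners, 5 had a log2 fold above 0 in Enshi black against Large White, and 6 against Chinese wild boar.

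**Figure D2:**
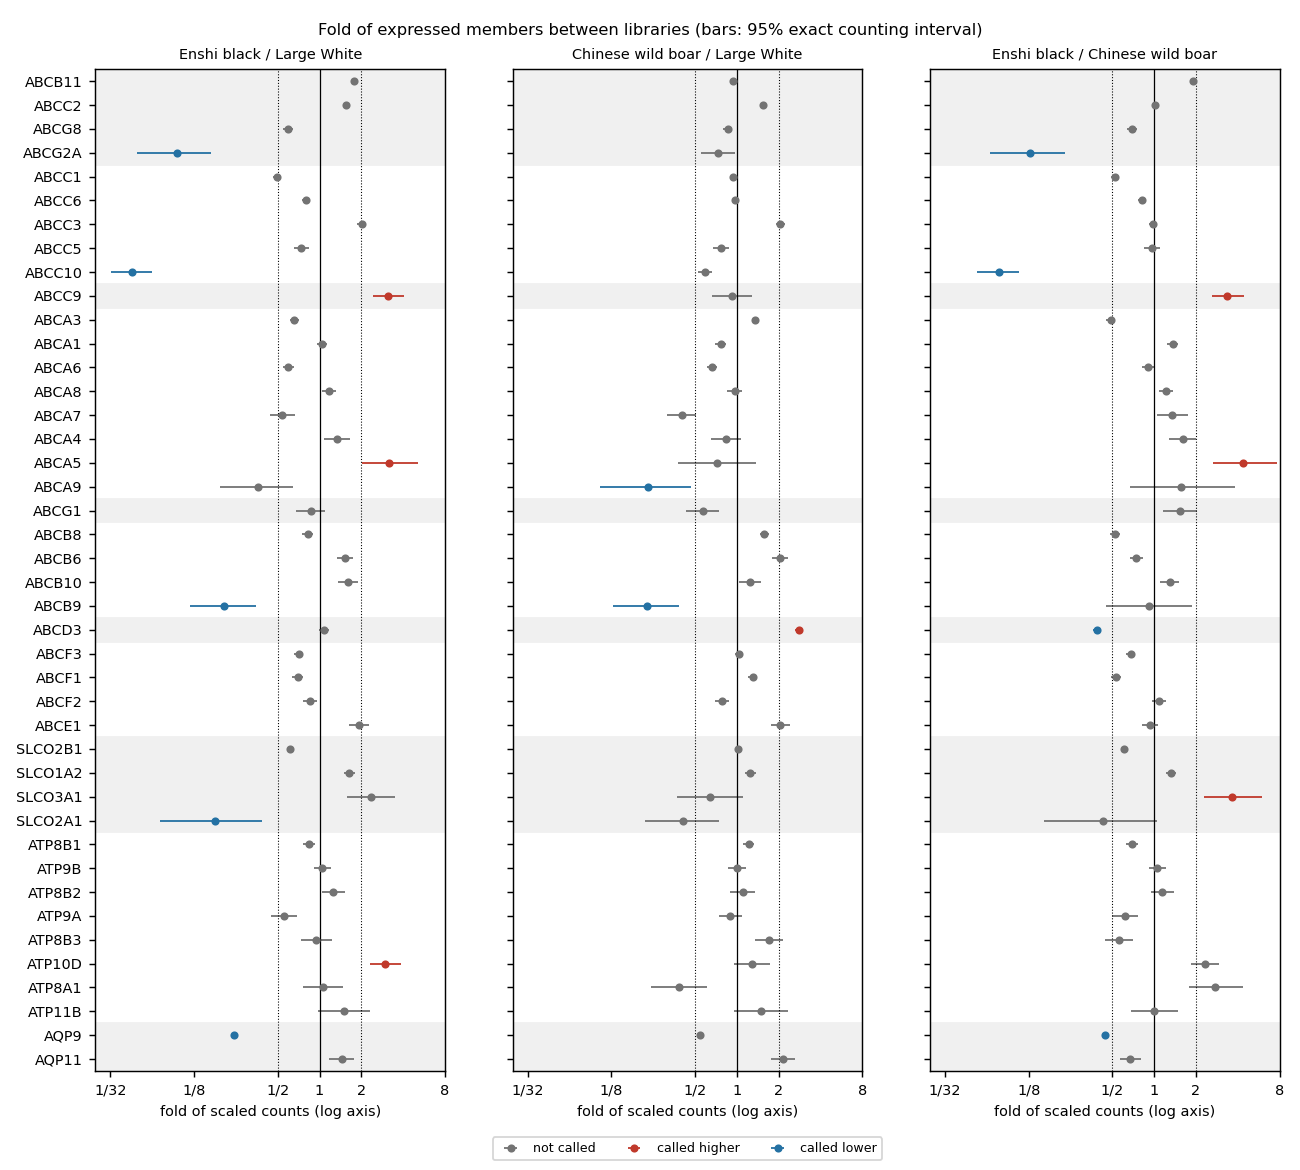
Fold of 42 of the expressed members (rows) in the 3 comparisons on a log axis, with its 95% exact counting interval. Dotted lines mark 2-fold, and colours mark members whose interval lies wholly beyond it. The Enshi black panels hold 8 and 7 coloured members, the Chinese wild boar against Large White panel holds 3.

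ABCA proteins are full-size lipid transporters, and all 8 ABCA gene IDs were expressed. ABCA1, which loads cholesterol and phospholipid onto apolipoprotein A-I, was not called in any comparison, with 56.3 CPM in the Enshi black, 54.2 in the Large White and 41.4 in the Chinese wild boar library. ABCA3, a phospholipid transporter best known from lung surfactant, increased in the order Enshi black, Large White and Chinese wild boar, with 59.0, 89.3 and 122 CPM. Its Enshi black level was 2.06-fold below that of Chinese wild boar (1.92 to 2.21) and not called. ABCA6 had 38.6, 64.5 and 42.8 CPM, and ABCA8 33.0, 28.3 and 27.3, both lipid transporters of a group of related genes with ABCA5 and ABCA9.

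Low-count ABCA genes differed more. ABCA5 (ENSSSCG00000017255) had 91 counts in the Enshi black, 26 in the Large White and 19 in the Chinese wild boar library. The Enshi black value was 3.18-fold higher than Large White (2.04 to 5.13) and 4.38-fold higher than Chinese wild boar (2.65 to 7.61). ABCA9 (ENSSSCG00000017257) was highest in Large White, with 17, 43 and 10 counts, and reached 1 CPM only there. It was called only as 4.33-fold lower in Chinese wild boar than in Large White (2.14 to 9.67). ABCA7, linked to phagocytosis and phospholipid transport, had 6.96, 12.9 and 5.17 CPM and missed the threshold in Chinese wild boar against Large White, at 2.50-fold lower (1.98 to 3.18). The retinal transporter ABCA4 had 10.3, 7.70 and 6.43 CPM and was not called. ABCG1, which moves sterols to lipoproteins and is abundant in macrophages, had 6.49, 7.5 and 4.26 CPM. None of its folds was called. Of 5 expressed Kupffer cell markers, 3 were called lower in Enshi black and 1 in Chinese wild boar, each against Large White. In Enshi black against Chinese wild boar 2 were called lower, and none was called higher in any comparison. The list summed to 678, 872 and 781 CPM, with no matched marker at 0 in all libraries. The 3 markers called in Enshi black against Large White were CSF1R, MARCO and CLEC4F, at 7.10-, 3.96- and 2.50-fold lower. Without them the list summed to 602, 581 and 589 CPM, of which C1QA gave 549, 520 and 518 CPM. That sum leaves out the markers that differed, so it does not describe Kupffer cell content. The part of Kupffer cell content in the ABCA7 and ABCG1 levels was not tested.

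ABCC9, the regulatory subunit of ATP-sensitive potassium channels of muscle and vessel cells (ENSSSCG00000000571), had 268 counts in the Enshi black, 78 in the Large White and 73 in the Chinese wild boar library. In CPM these were 12.4, 3.98 and 3.70, so that Enshi black was 3.12-fold higher than Large White (2.42 to 4.07) and 3.36-fold higher than Chinese wild boar (2.59 to 4.42). Large White and Chinese wild boar did not differ beyond counting error, with a fold of 1.08 (0.772 to 1.5). Stellate cell markers also differed: of 5 expressed, 4 were called higher in Enshi black than in the Large White library, 1 higher in Chinese wild boar than in Large White and 2 higher in Enshi black than in Chinese wild boar. Their sums were 1004, 291 and 509 CPM in Enshi black, Large White and Chinese wild boar, of which COL3A1 gave 838, 232 and 384 CPM. The marker LUM was at 0 in Large White and under 1 CPM in every library. PDGFRB, the expressed marker called in no comparison, had 15.9, 17.9 and 18.7 CPM in the same order. The part of stellate cell content in the ABCC9 difference was not tested.

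Partners of sterol export were described from 9 symbols, of which 8 had a gene ID and 7 were expressed, and none was called in any comparison. LCAT, the enzyme that esterifies cholesterol on high-density lipoprotein, had 254, 371 and 519 CPM in Enshi black, Large White and Chinese wild boar. SREBF2, the transcription factor of cholesterol synthesis and uptake, had 211, 200.4 and 305 CPM. APOA1 is on this list as well, and its level is not described because of the doubt about its gene ID.

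The ABCB transporters of mitochondria and lysosomes, with ABCB5, comprised 6 gene IDs, 5 of them expressed. ABCB9 (ENSSSCG00000009784), the lysosomal peptide transporter, had 18 counts in the Enshi black, 79 in the Large White and 18 in the Chinese wild boar library. It was 4.83-fold lower in Enshi black (2.87 to 8.56) and 4.42-fold lower in Chinese wild boar (2.62 to 7.84) than in Large White. ABCB9 passed the expression filter through Large White alone, the library in which it was high. The mitochondrial members were not called. ABCB8 had 44.5, 54.0 and 85.0 CPM and ABCB6, a porphyrin transporter, 27.8, 18.3 and 37.3, both highest in Chinese wild boar. ABCB10, which acts in haem synthesis, had 18.2, 11.3 and 14.1 CPM, highest in Enshi black.

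Among the peroxisomal ABCD genes, ABCD3 (ENSSSCG00000028620) was called. It imports branched-chain and dicarboxylic fatty acids and bile acid intermediates for peroxisomal oxidation. ABCD3 had 1193 counts in the Enshi black, 1001 in the Large White and 2820 in the Chinese wild boar library, or 55.3, 51.1 and 143 CPM. The Chinese wild boar was 2.80-fold higher than Large White (2.60 to 3.01), and Enshi black was 2.58-fold lower than Chinese wild boar (2.41 to 2.77). Enshi black and Large White differed by 1.08-fold (0.995 to 1.18).

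Soluble ABC proteins of translation, 4 in number, were all expressed and none was called. ABCE1, the ribosome recycling factor, had 22.1 CPM in the Enshi black, 11.5 in the Large White and 23.7 in the Chinese wild boar library, with a fold of 2.06 in Chinese wild boar over Large White (1.75 to 2.42). ABCF1 had 42.9, 61.5 and 80.2 CPM, and ABCF3 59.7, 84.3 and 87.9, both lowest in Enshi black. ABCF2 had 27.8, 32.6 and 25.6 CPM.

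**Figure D3:**
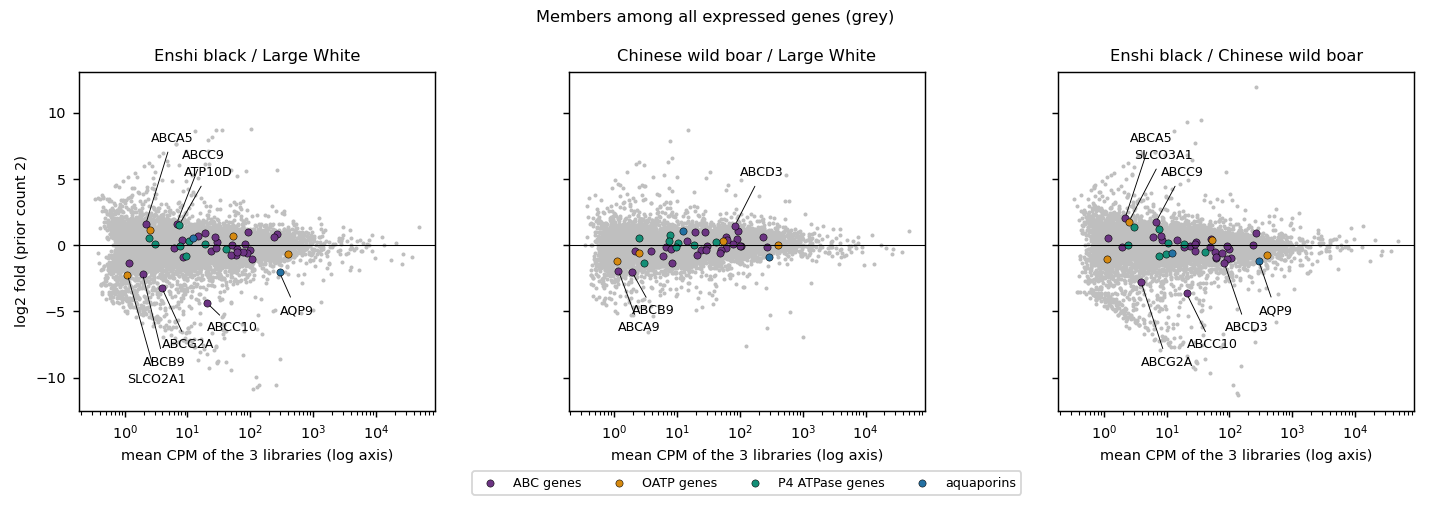
Log2 fold (prior count 2) of all 13224 expressed genes (grey) and of 42 of the expressed members (coloured by family) against mean CPM on a log axis, in each comparison. Called members are named. Most members lie within the grey band, and ABCC10 lies farthest from 0 in both Enshi black panels.

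Flippases had 11 gene IDs, of which 9 were expressed, and 2 were called in any comparison, among them ATP10D. ATP10D (ENSSSCG00000008812), which flips glucosylceramide, had 272, 83 and 107 counts. Its fold was 2.98 over Large White (2.32 to 3.86) and 2.33 over Chinese wild boar (1.85 to 2.94), the latter not called.

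The canalicular flippase ATP8B1, whose loss in people causes cholestasis, was not called in any comparison, with 34.2, 40.6 and 49.2 CPM. ATP9B, of the Golgi, was the most even flippase gene, with 19.4, 18.5 and 18.4 CPM. ATP8B2 had 11.7, 9.29 and 10.2 CPM, ATP8B3 5.94, 6.28 and 10.6, and the endosomal ATP9A 6.49, 11.7 and 10.5. ATP8A1 had 84, 72 and 28 counts, lowest in Chinese wild boar, where it was 2.59-fold below Large White (1.65 to 4.16) and not called. ATP11B had 59, 36 and 54 counts. Most flippases of this class, though not ATP9A and ATP9B, need a subunit of the TMEM30 family, which had no matched gene ID and was not analysed here.

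Scramblases undo the asymmetry that flippases build. The list of flippase partners and scramblases had 10 symbols, among them TMEM16F as another name of ANO6. Of these symbols, 4 had a gene ID, all expressed. ANO6, a calcium-activated scramblase, had 44.9 CPM in the Enshi black, 12.4 in the Large White and 18.9 in the Chinese wild boar library. It was highest in Enshi black, by 3.62-fold over Large White (3.15 to 4.19) and 2.38-fold over Chinese wild boar (2.11 to 2.69), and both were called. PLSCR3, PLSCR4 and the apoptotic scramblase XKR8 were not called, with PLSCR3 at 13.9, 17.9 and 11.1 CPM.

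Of 6 aquaporin gene IDs, 2 were expressed. AQP1, AQP3, AQP7 and AQP8 had no matched gene ID and were not analysed here. AQP9, the aquaglyceroporin of the hepatocyte sinusoidal membrane (ENSSSCG00000004597), had 2548 counts in the Enshi black, 9603 in the Large White and 5286 in the Chinese wild boar library, or 118, 490 and 268 CPM. All 3 libraries differed from each other beyond counting error. Enshi black was 4.15-fold lower than Large White (3.97 to 4.33) and 2.27-fold lower than Chinese wild boar (2.16 to 2.38). The Chinese wild boar was 1.83-fold lower than Large White (1.77 to 1.89), which was not called. AQP11, an aquaporin of intracellular membranes, had 11.5, 8.01 and 17.1 CPM and was highest in Chinese wild boar, with a fold of 2.14 over Large White (1.76 to 2.60).

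Genes of glycerol use were described beside AQP9, from a list of 8 symbols with 7 expressed. None was called in either comparison with Large White. In Enshi black against Chinese wild boar, 1 was called higher and 2 lower. GPD1, the cytosolic glycerol-3-phosphate dehydrogenase, had 104, 161 and 283 CPM and was 2.74-fold lower in Enshi black than in Chinese wild boar (2.61 to 2.88). PCK1, the gluconeogenic carboxykinase, had 577, 934 and 1348 CPM and was 2.34-fold lower (2.29 to 2.39). GPD2, the mitochondrial glycerol-3-phosphate dehydrogenase, was 3.73-fold higher (2.60 to 5.47) at 155 counts against 38. Both GPD1 and PCK1 were highest in Chinese wild boar, unlike AQP9, which was highest in Large White.

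**Figure D4:**
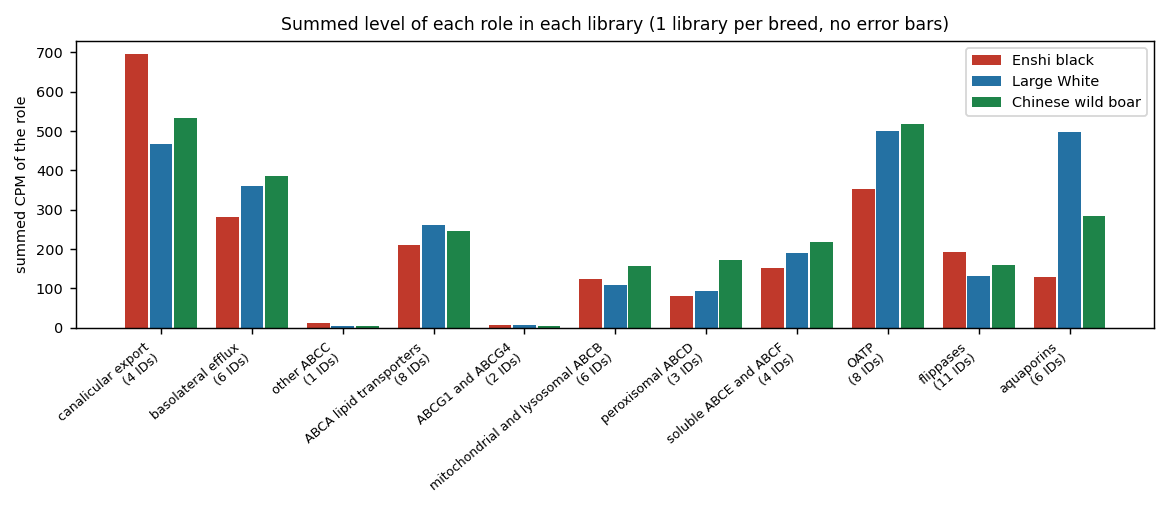
Summed CPM of the gene IDs of each role, as bars from 0, in each library. Canalicular export is highest in Enshi black, while the OATP and aquaporin sums are lowest there. There is 1 library per breed and no error bar.

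Summed by role, canalicular exporters had 695 CPM in the Enshi black, 466 in the Large White and 534 in the Chinese wild boar library, an order that ABCB11 and ABCC2 set. The matched OATP genes summed to 353, 499.8 and 518 CPM, of which SLCO2B1 made up most. Flippase genes summed to 191, 132 and 159 CPM, and the matched aquaporins to 130, 498 and 285. The sum of all 59 members was 2234 CPM in the Enshi black, 2623 in the Large White and 2681 in the Chinese wild boar library. The aquaporin difference between Enshi black and Large White was thus about as large as the difference in the total, while the canalicular and OATP sums went in opposite directions.

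Position in the genome was available only as gene order in RefSeq's Sscrofa11.1 annotation, a later assembly than that of the counts. AQP2, AQP5 and AQP6 lie side by side, and each had at most 2 counts in any library. ATP8B2 and AQP10 are direct neighbours, the former with 182 to 252 counts and the latter with none. SLCO4C1 and SLCO6A1 lie with 1 gene between them and were both unexpressed. ABCD3 and ABCA4 also lie with 1 gene between them, and ABCA4 did not share the high Chinese wild boar level of ABCD3, with 127 counts there against 222 in Enshi black.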

How the data were processed

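Liver RNA of 3 pigs was sequenced as paired-end reads, per the labels' protocols. The authors deposited whole-number counts per Ensembl gene ID, not normalized, in 1 table for each library. The submitters' processing notes list the build Sscrofa10.2 with edgeR 3.16.3, HTSeq 0.6.1 and TopHat2 2.1.0. How strand and multiply aligned reads were handled, and the annotation release, are not given in the sources at hand, so genes with related copies or overlapping neighbours are uncertain. The 5 rows that name no gene were left out of library sizes. Among reads counted to a gene, to no feature or as ambiguous, those of no feature made up 18.9% to 22.0%. Ambiguous reads made up 1.89% to 2.49% of the same total. A symbol was found for 11804 gene IDs, and family members without a symbol were not analysed here.

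TMM scaling used edgeR 4.0.16 under R 4.3.3, with factors of 1.04 (Enshi black), 0.981 (Large White) and 0.976 (Chinese wild boar), so that 1 count was worth 0.0464 to 0.0510 CPM. As each breed has 1 library, nothing was tested across animals and no p-values are given. Folds and 95% Clopper-Pearson intervals, given the sum of both counts, were computed for every gene with Python 3.11.15 and scipy 1.17.1. No molecular identifiers are described, so intervals cover counting error only, as does the floor of 3 counts given for a count of 0. The calling rule was tested on data simulated with counting error alone. That simulation holds no variation between animals, so it cannot show how the rule performs across animals. Members and gene lists were chosen with earlier results of these data known. Named were all called members, the 4 most abundant of each role, and called or the 2 most abundant partner genes, with others named after their values were seen. Some members that this rule takes are not reported here, though counts and sums over members include them. Alternatives were DESeq2 1.42.0 size factors, total counts, other filters, bounds and prior counts, an assumed variation between animals and, chosen after seeing the data, TMM factors from each pair alone. Levels per coding length were planned and not computed, since no lengths of the annotation were used. No sequences or coordinates are printed.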

Additional observations from a re-analysis of the deposited data

How the results depend on the processing

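With 1 library per breed, no replicate could be left out. No paired analysis was possible because each group has 1 library. Counts of called members were identical with DESeq2 size factors, total counts and TMM factors from each pair alone. In the order Enshi black against Large White higher and lower, Chinese wild boar against Large White higher and lower, and Enshi black against Chinese wild boar higher and lower, the 4, 5, 1, 2, 3 and 4 members became 0, 2, 0, 0, 0 and 2 with a bound of 4, where 1.13%, 3.35%, 0.665%, 0.855%, 0.877% and 2.98% of all expressed genes were called. They became 9, 12, 5, 5, 8 and 9 with a bound of 1.5, beside 11.7%, 14.8%, 7.55%, 8.47%, 9.77% and 12.8% of all expressed genes. Adding an assumed variation between animals (coefficient 0.4) gave 0, 2, 0, 0, 0 and 2, and the members left were ABCC10 and ABCG2A, lower in Enshi black in both comparisons. Called genes over all expressed genes were then 1.006%, 3.12%, 0.560%, 0.779%, 0.862% and 2.80%. A filter of 10 CPM left 36 members and gave 3, 2, 1, 0, 1 and 3, beside 4.36%, 7.81%, 3.42%, 3.39%, 3.30% and 6.80% of all genes that passed it. Without a filter, ATP8B4 was called lower too in Enshi black against Large White.

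The member median for Enshi black against Large White, -0.08, was -0.21 without a filter, and the mean in its place was -0.20. For Chinese wild boar against Large White it was -0.09, and 0.013 with a filter of 10 CPM. Total counts turned the sign of both Enshi black medians, to 0.01 against Large White and 0.04 against Chinese wild boar, and moved the median of all expressed genes to 0.10 in both. No call of a single member changed direction under any alternative.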
